A study of Mus musculus with 2 samples.

Results

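Hormone-granule enteroendocrine cells without Neurog3 were the cells in which Chga, Chgb and Sct together reached at least 10 per 10000 UMIs and in which no UMI of Neurog3 was seen. UMIs, unique molecular identifiers, count captured transcripts, and every level below is given per 10000 UMIs of its cell. The rule was met by 121 of 2209 cells: 98 of 1241 in the DBZ library and 23 of 968 in the DMSO library. The cells were thus chosen by their measured Chga, Chgb, Sct and Neurog3 levels, so the levels of these 4 genes are a description and support nothing. Both libraries came from Apc mutant intestinal organoids, small cultures grown from the intestine of C57Bl mice aged 3 to 4 months. Apc is the tumour suppressor that holds Wnt signalling in check. DBZ is a gamma-secretase inhibitor: it stops the cleavage through which Notch receptors signal. DMSO is the solvent control. The treatment text carried by both samples gives 10 uM DBZ and 300 nM of 4-OH-tam, a tamoxifen metabolite that switches on tamoxifen-dependent Cre enzymes, so only the titles tell the treatments apart. The sources used here do not give the number of animals, what drives the Apc mutation or how long DBZ was applied. Each treatment has 1 library, so every statement compares these libraries, without a replicate check and without a test. Intervals are exact 95% intervals for counting error alone, because the cells of a library share their source.

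Enteroendocrine cells are the hormone-producing cells of the gut epithelium. They arise from secretory progenitors in which Neurog3, a basic helix-loop-helix transcription factor, is switched on for a short time, and Notch signalling holds that switch down. Maturing cells keep peptide hormones in dense-core granules built with chromogranins and secretogranins, cut the hormone precursors with convertases and carboxypeptidase E, and release them through the SNARE machinery that neurons also use. Neurog3 transcript is lost as the cells mature.

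The genes of the rule lie on 4 chromosomes of the mouse build GRCm38 (mm10), per the GENCODE M21 annotation. Chga, chromogranin A, spans 102554969 to 102565028 of chromosome 12 on the plus strand. Chgb, chromogranin B, spans 132781278 to 132795079 of chromosome 2 on the plus strand. Sct, which encodes the hormone secretin, spans 141278330 to 141279133 of chromosome 7 on the minus strand. Neurog3 spans 62133090 to 62134763 of chromosome 10 on the plus strand, and all of them are protein coding. The promoters of the 3 granule genes are shown because these genes define the cells; they are the 250 bases before the transcript start in RefSeq's GRCm38.p6 annotation, written 5′ to 3′ on the gene's strand. The windows are chr12:102554691-102554940 for Chga, chr2:132781392-132781641 for Chgb and chr7:141279134-141279383 for Sct. Capitals mark the cyclic AMP response element TGACGTNA and the E-box CAGNTG, the kind of site that basic helix-loop-helix factors read, both searched on both strands.
Chga: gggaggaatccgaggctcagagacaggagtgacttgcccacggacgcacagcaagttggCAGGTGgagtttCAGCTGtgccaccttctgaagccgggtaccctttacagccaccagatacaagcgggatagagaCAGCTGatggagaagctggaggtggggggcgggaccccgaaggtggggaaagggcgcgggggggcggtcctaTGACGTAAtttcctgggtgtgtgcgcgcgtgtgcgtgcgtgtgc
Chgb: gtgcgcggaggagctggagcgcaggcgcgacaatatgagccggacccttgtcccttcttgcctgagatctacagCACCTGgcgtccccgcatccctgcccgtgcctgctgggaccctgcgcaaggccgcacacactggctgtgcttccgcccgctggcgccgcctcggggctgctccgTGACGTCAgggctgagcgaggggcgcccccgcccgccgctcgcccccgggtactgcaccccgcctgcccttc
Sct: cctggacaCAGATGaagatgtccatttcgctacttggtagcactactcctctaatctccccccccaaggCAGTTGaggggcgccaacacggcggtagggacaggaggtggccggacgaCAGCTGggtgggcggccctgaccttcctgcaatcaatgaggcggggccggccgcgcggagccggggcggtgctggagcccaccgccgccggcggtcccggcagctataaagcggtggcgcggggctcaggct
The Chga window held 1 match to TGACGTNA, beginning 44 bases before the start, and the Chgb window held 1, beginning 72 bases before it. In the Sct window these letters did not occur. TGACGTNA was found in 2.52% of 32851 mouse promoter windows of the same length. CAGNTG occurred 3 times in the Chga window, 1 time in the Chgb window and 3 times in the Sct window, and in 44.8% of all windows at least once. The 2 motifs did not overlap in these windows. The GENCODE start of Chgb lies upstream of its RefSeq window. A match is a description of the sequence and no evidence of binding.

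The hormone-granule cells made up 7.90% of the DBZ library (6.46 to 9.54%), against 2.38% of the DMSO library (1.51 to 3.54%). Counting intervals of the libraries did not overlap. Cells that reached the same granule level but held Neurog3 UMIs numbered 22 in the DBZ library, 1.77% (1.11 to 2.67%), and 3 in the DMSO library, 0.310% (0.0640 to 0.903%). Cells with Neurog3 UMIs below the granule level were 44 and 11. The other 1077 DBZ cells and 931 DMSO cells are called the remaining cells. Hormone-granule cells without Neurog3 had a median of 8729.5 UMIs in the DBZ library (5484 to 24078) and 8156 in the DMSO library (5860 to 19395). Remaining cells were deeper, with medians of 11377 UMIs with DBZ and 11332 with DMSO. The median mitochondrial share of UMIs was 4.69% in DBZ hormone-granule cells and 4.17% in DMSO ones, against 4.71% and 4.41% in the remaining cells. Across the libraries 3 barcodes were shared, 1 of them by a hormone-granule cell. A doublet caller marked 2 DBZ cells and 6 DMSO cells, 0 of them hormone-granule cells. These calls are few, so the part of doublets was not settled by them.

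The granule sum of Chga, Chgb and Sct had nearly the same median and a wide spread in both libraries, with its lower end set by the rule. Quartiles of the sum were 15.6 and 40.4 in DBZ cells, and 14.6 and 54.6 in DMSO cells. Its median was 22.7 in DBZ cells, with a range of 10.4 to 1213, and 22.3 in DMSO cells, with a range of 10.6 to 617. It reached 100 in 11 DBZ and 4 DMSO cells. The class is a range and not a closed type: 59 DBZ and 12 DMSO cells reached 20, while a minimum of 5 would take in 145 DBZ and 36 DMSO cells. Just inside the minimum lay cells at 10.4, 10.5 and 10.6, all DBZ, and just outside it a DMSO cell at 9.98 and DBZ cells at 9.97 and 9.67. Sct gave the largest share of the sum in 53 DBZ and 9 DMSO cells, Chgb in 40 and 12, and Chga in 5 and 2. UMIs of all 3 genes were found together in 63 DBZ and 14 DMSO cells.

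**Figure D1:**
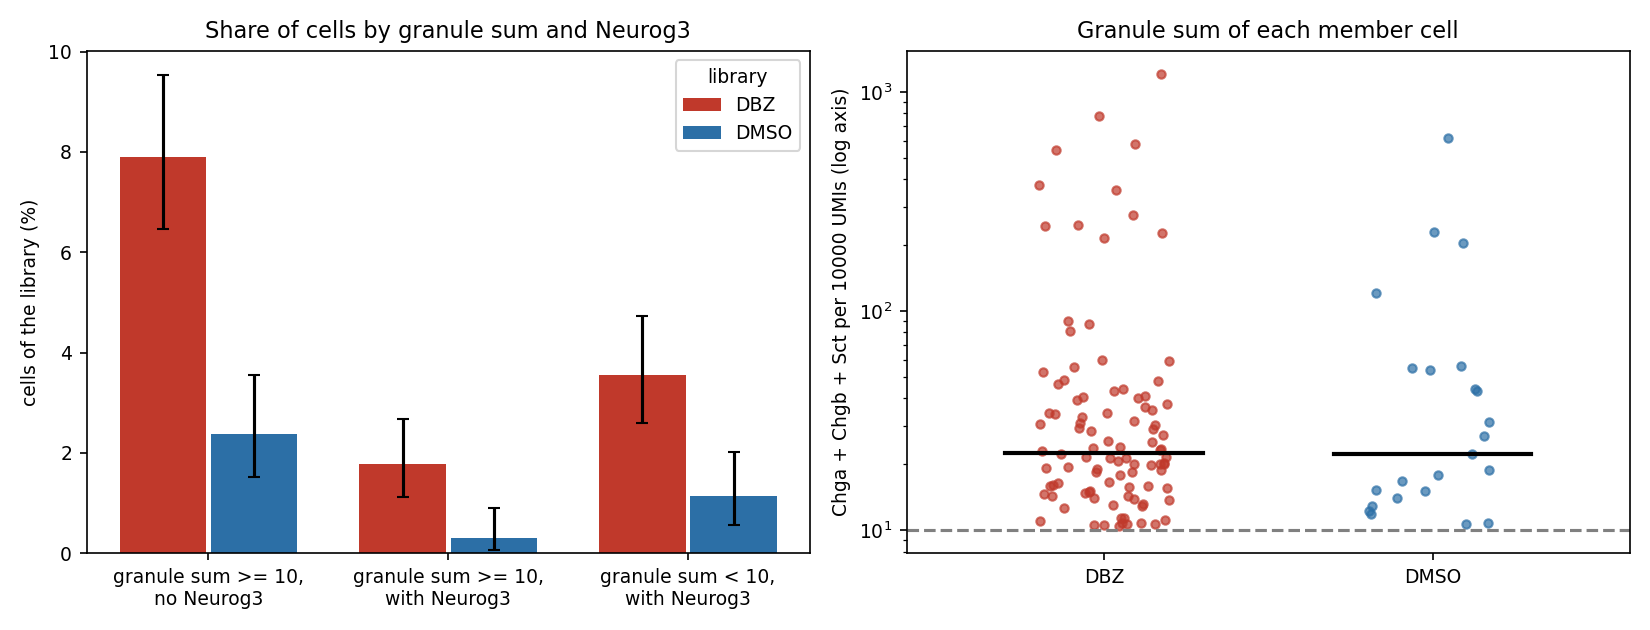
Left, the share of each library's cells (%) that reached the granule level without Neurog3, reached it with Neurog3, or held Neurog3 below it; bars start at 0 and error bars are exact 95% counting intervals. Right, the summed level of Chga, Chgb and Sct in each hormone-granule cell on a log axis, with lines at the medians of 22.7 (DBZ) and 22.3 (DMSO) and a dashed line at the minimum of 10.

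Chgb levels in DBZ cells were 0 at the lowest, 8.49 at the median and 972 at the highest, against 0, 10.2 and 437 in DMSO cells. Sct levels were 0, 8.61 and 378 in DBZ cells, against 0, 8.08 and 198 in DMSO cells. Chga levels were 0, 1.97 and 254 in DBZ cells and 0, 1.55 and 180 in DMSO cells. The libraries overlap throughout for all of these genes. The hormone-granule cells held 77.1% of all Sct UMIs of the DBZ library and 63.8% of those of the DMSO library. A Sct UMI was nevertheless found in 24.1% of remaining DBZ cells and 16.9% of remaining DMSO cells. Their Sct mean was 0.333 with DBZ and 0.203 with DMSO, against 29.2 and 23.6 in the hormone-granule cells. Across the 98 DBZ cells, which share 1 library and differ in depth, Chga and Chgb levels had a Spearman correlation of 0.42. Chga and Sct had one of -0.34, and all 3 genes enter the minimum sum that chose the cells.

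The label was checked against genes the rule did not use. Of 26 genes of the granule and exocytosis list, 25 were in the table. A median DBZ hormone-granule cell showed UMIs of 12 of them (4 to 19) and a median DMSO one of 13 (0 to 17). Remaining cells showed 3 with DBZ and 2 with DMSO. After every cell was thinned to 5000 UMIs, hormone-granule cells showed medians of 9 with DBZ and 10 with DMSO, against 1 and 1 in the remaining cells. Granule genes outside the rule were therefore seen in nearly all of these cells. In 2 of the 23 DMSO cells 0 granule-list genes were seen; their only rule gene was Sct, at 10.7 and 15.1, although they had 10234 and 10601 UMIs. Leaving them out gives 21 DMSO cells, 2.17% of the library.

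Next to all other cells, 6.35% of 5133 genes were at least 2-fold higher in the hormone-granule cells and 1.95% at least 2-fold lower, which the choice of cells partly fixes. The detection filter of this comparison, a UMI in 25% or more of the cells of a library, looked at hormone-granule cells alone, so the values below are a description. Scg2, secretogranin II, a granule matrix protein, averaged 4.95 against 0.109 in other cells (log2 4.98). Scg5, the chaperone of the convertase PC2, averaged 2.90 against 0.153. Pcsk1n, the inhibitor of the convertase PC1, averaged 7.15 against 0.455. Cpe, carboxypeptidase E, which trims hormone precursors, was seen in 94.9% of DBZ and 91.3% of DMSO hormone-granule cells, against 32.9% and 7.73% of remaining cells. Thinned to 5000 UMIs, these shares were 89.8% and 91.3%, against 21.5% and 3.76%. Snap25, a SNARE protein of the release machinery, averaged 1.51 against 0.0646, and Ptprn, a granule membrane protein, 0.584 against 0.0123. Resp18, a protein of the granule lumen, averaged 2.94 against 0.0875. Bex2 averaged 6.18 against 0.488, and Hepacam2 1.69 against 0.117. The convertase gene Pcsk1 averaged 2.36 against 0.451, while Pcsk2 averaged 0.00624 against 0.0699, with a UMI in 1 of 98 DBZ hormone-granule cells and 0 of 23 DMSO ones.

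Beyond secretin, hormones were carried by small subsets of cells. A hormone was called high in a cell at 10 or more per 10000. Sct was high in 46 of 98 DBZ cells, 46.9% (36.8 to 57.3%), and in 10 of 23 DMSO cells, 43.5% (23.2 to 65.5%). Ghrl, which encodes ghrelin, the hormone of X-type cells, was high in 12 DBZ cells, 12.2% (6.49 to 20.4%), and 5 DMSO cells, 21.7% (7.46 to 43.7%). Reg4, a lectin of the regenerating family and a marker of enteroendocrine and other secretory cells, was high in 18 DBZ cells, 18.4% (11.3 to 27.5%), and 4 DMSO cells, 17.4% (4.95 to 38.8%). For all 3 genes the counting intervals of the libraries overlap. Hdc, the histamine-forming histidine decarboxylase, was high in 11 DBZ cells, 11.2% (5.74 to 19.2%), and 1 DMSO cell, 4.35% (0.110 to 21.9%), again with overlapping intervals. Iapp, which encodes amylin, was high in 5 of 98 hormone-granule cells with DBZ, against 5 of 23 with DMSO.

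The remaining hormones were each high in a handful of cells. Gip, Gcg and Cck, which encode the glucose-dependent insulinotropic peptide, proglucagon and cholecystokinin, were high in 3 DBZ cells each, 3.06% (0.636 to 8.69%). All 3 were listed at 0 throughout the DMSO library, so no share is given for its hormone-granule cells. Tph1, the rate-limiting enzyme of serotonin synthesis in the gut, was high in 4 DBZ cells and 1 DMSO cell. Tac1, the substance P precursor, was high in 2 DBZ cells and 1 DMSO cell. Over Ghrl, Gip, Gcg, Cck, Iapp, Tac1 and Tph1, 73 DBZ cells had none high, 19 had 1, 5 had 2 and 1 had 3. Of DMSO cells, 14 had none, 6 had 1 and 3 had 2. Among the 73 and 14 cells without another high hormone, Sct was high in 36 and 6. Hdc and Reg4 are not among the 7 genes counted here.

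Individual cells showed known enteroendocrine subtypes. Cells of enterochromaffin type, the serotonin-making cells, appeared in both libraries. Those highest in Chga were 3 DBZ cells with Chga at 178, 242 and 254, Chgb at 398, 972 and 521, Reg4 at 733, 624 and 889 and Tph1 at 16.9, 40.9 and 6.71. Next to them stood 1 DMSO cell with Chga at 180, Chgb at 437, Reg4 at 1123 and Tph1 at 36.6. All of these cells had UMIs of Tac1, of Fev, a transcription factor of serotonin cells, and of Slc18a1, the vesicular monoamine transporter, while Sct was at 0 in 3 of the 4 and at 4.23 in the other. These 4 are the cells with Chga, a rule gene, at 100 or more, so their high Chga follows from grouping them this way. Not all cells with serotonin genes were high in Chga. A DBZ cell with Tph1 at 18.4 and another at 16.0 also had UMIs of Tac1, Fev and Slc18a1, with Chga at 2.91 and 12.6.

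Other single cells were rich in a peptide hormone. A DBZ cell had Gip at 3407 with Cpe at 20.4, Scg2 at 8.30 and Tph1 at 0, and the next highest Gip level among the DBZ cells was 135. Another DBZ cell had Gcg at 1292 together with Cck at 550 and Ghrl at 20.5. In a further DBZ cell Ghrl was at 481 and Cck at 520. The DBZ cell with the highest Sct level, 378, also had Reg4 at 361 and Ghrl at 203. In the DMSO library 1 cell had Ghrl at 726 with Chga at 12.3 and with Sct and Chgb at 0. Several of these cells therefore carried more than 1 hormone gene at a high level. Single cells set the library means of these genes: without the highest cell, the DBZ mean of Gip was 2.06 in place of 36.8, that of Gcg 0.433 in place of 13.6 and that of Cck 6.39 in place of 11.9.

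**Figure D2:**
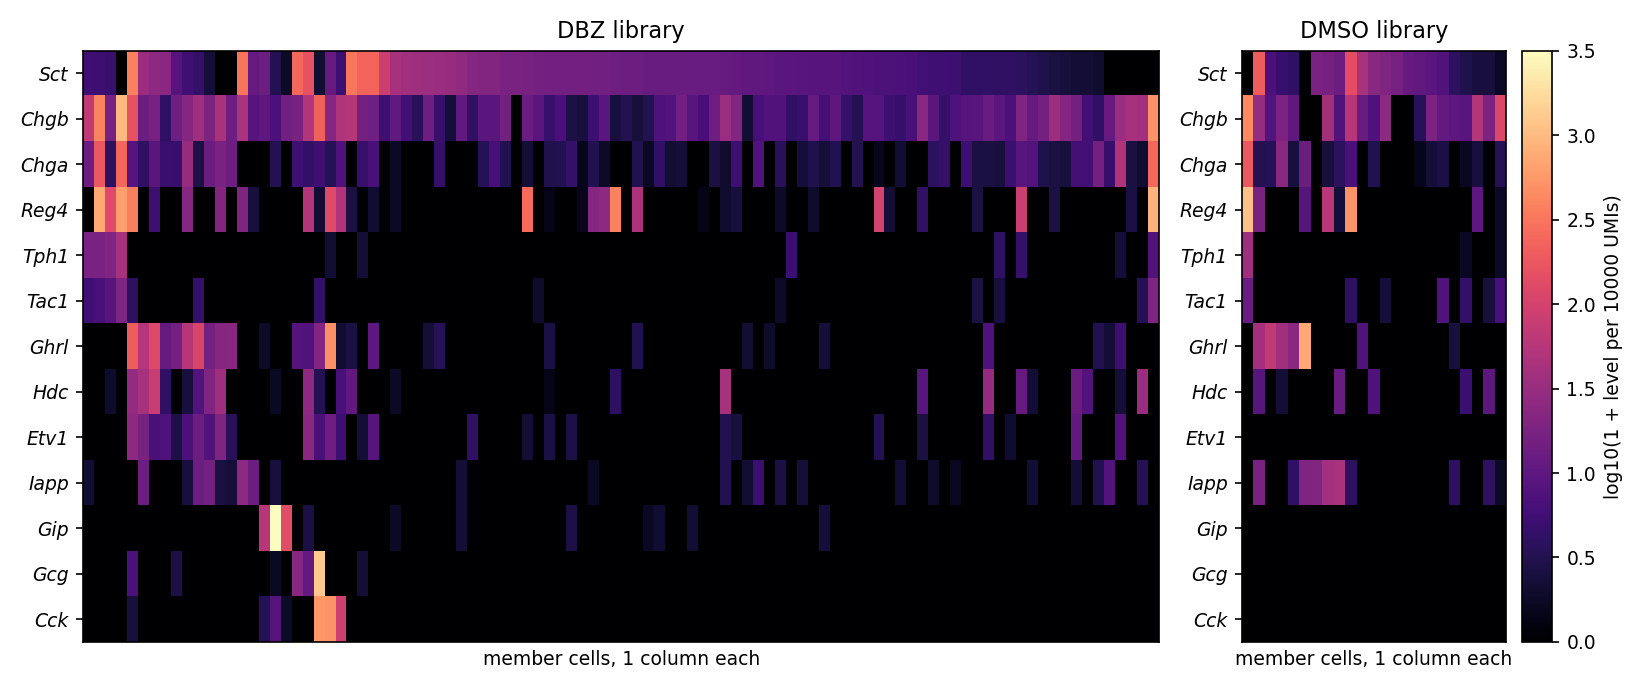
Levels of 13 genes in every hormone-granule cell, 1 column per cell, for the 98 DBZ cells (left) and the 23 DMSO cells (right); colour is log10 of 1 plus the level per 10000 UMIs. Cells with Tph1, Ghrl, Iapp, Gip, Gcg or Cck at 10 or more stand first within each panel and the others follow by falling Sct, so that most columns show Sct and Chgb without another high hormone.

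The share of a library's transcripts held by these cells differed between peptides. In the DBZ library they held 96.5% of Gip UMIs, 97.1% of Gcg UMIs and 97.7% of Cck UMIs. A single cell held 4514 of the library's 4917 Gip UMIs and another 1132 of its 1204 Gcg UMIs, and without these cells, a choice made after seeing the data, the shares were 57.1% and 51.4%. A Gip UMI was seen in 11.2% of DBZ hormone-granule cells and in 14.4% of remaining DBZ cells. Their part of the Ghrl UMIs was 43.7% with DBZ and 94.9% with DMSO, and 7 remaining DBZ cells also had Ghrl at 10 or more. A single DBZ cell held 406 of the library's 2048 Ghrl UMIs, and without it, again chosen after seeing the data, the DBZ share was 29.8%. In the DMSO library 1 hormone-granule cell had Ghrl at 726. Npy, neuropeptide Y, and Nts, neurotensin, lay mostly in other cells. Of 4403 Npy UMIs in the DBZ library the hormone-granule cells held 11, and Npy was seen in 11.2% of them against 33.1% of remaining DBZ cells. Of 3183 Nts UMIs they held 13, with Nts seen in 5.10% of them against 20.3% of remaining DBZ cells. In the DMSO library, 0 of 65 Npy UMIs and 0 of 232 Nts UMIs were in hormone-granule cells.

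Etv1, an ETS-family transcription factor (chromosome 12, 38779380 to 38870484, plus strand), was seen in part of the DBZ cells. It was found in 28 of 98 of them, with levels of up to 25.2 and a median of 0, and in 25.5% after thinning to 5000 UMIs, against 28.0% of granule cells with Neurog3 and 2.14% of remaining DBZ cells. It was listed at 0 in all cells of the DMSO library, so no fold is given. Etv1 was chosen for this split after its values were seen, and the differences are a description. The 28 cells with Etv1 averaged 41.4 Ghrl, against 0.321 in the 70 cells without it. Their Hdc mean was 12.1 against 0.955, their Cpe mean 14.4 against 5.07 and their Scg2 mean 8.81 against 3.00. Ghrl was seen in 18 of the 28 cells with Etv1 and in 11 of the 70 without. Tph1 had a lower mean in cells with Etv1, 0.136 against 1.57. It was seen in 3 of the 28 and 8 of the 70 cells, with medians of 0 in both. Its Spearman correlation with Etv1 was -0.02. Etv1 cells were shallower, with a median of 7333 UMIs against 9163. Across the 98 DBZ cells, Etv1 had Spearman correlations of 0.62 with Ghrl, 0.57 with Hdc and 0.57 with Cpe, over cells that share a library and many zeros.

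Granule cells without Neurog3 had lower levels of most endocrine transcription factors compared here than granule cells that held it. The 25 cells with Neurog3 had Neurog3 levels of 0.623 to 42.1, with a median of 9.05, and 3 of them had a single Neurog3 UMI. Their depth was close to that of the other class, with a median of 8854.5 UMIs in the 22 DBZ cells. Over 5077 genes, 5.2% were at least 2-fold higher and 6.11% at least 2-fold lower in the cells without Neurog3. The rule used this contrast, so these counts describe it. Genes compared had a UMI in 25% or more of the cells of either class, so a gene could enter through the cells with Neurog3 alone. Such entry favours a lower value in the cells without Neurog3. Of 13 endocrine transcription factors past this filter, 10 were at least 2-fold lower and 0 higher in cells without Neurog3, with a median log2 difference of -1.72 against -0.06 for all genes. Filtered on hormone-granule cells alone, 9 factors passed, so some of the 13 entered through the cells with Neurog3 and the count is a description. Summed without a filter, the 20 factors in the table had medians of 7.51 (DBZ) and 6.73 (DMSO), against 32.2 with Neurog3. Neurod1, a direct downstream factor of Neurog3, averaged 1.56 in cells without Neurog3 and 7.10 in cells with it. Nkx2-2, a homeobox factor needed for endocrine subtypes, averaged 1.15 and 3.90. Runx1t1, a corepressor, averaged 0.644 and 3.46, and Insm1, a zinc finger factor of endocrine differentiation, 1.14 and 2.84.

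Pax4, a paired box factor of early endocrine cells, was seen in 1.65% of them and in 24.0% of those with it. Neurod2, a relative of Neurod1, was seen in 4.13% and 44.0%. Only Pax6, a paired box factor of hormone-producing cells, stood above 0 among the 13, with means of 0.487 in cells without Neurog3 and 0.281 in cells with it (log2 0.70). Of 6 genes of the early secretory and endocrine progenitor list past the same filter, 5 were at least 2-fold lower in cells without Neurog3. Sox4, an SRY-box factor of early progenitors, averaged 5.22 without Neurog3, 13.2 in granule cells with it and 17.2 in Neurog3 cells below the granule level. Tox3, an HMG-box protein, averaged 1.35 and 4.12, and the transcriptional corepressor Cbfa2t3 0.442 and 1.51. Gadd45a, a growth arrest gene, averaged 1.81 and 12.5. Gfra3, a receptor of the GDNF family, averaged 0.392 and 3.06, and Tubb3, a tubulin, 0.0778 and 0.978.

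Hormone genes did not move as a group. Of 4 peptide hormones past the filter, 2 were at least 2-fold higher in cells without Neurog3, Ghrl and the rule gene Sct, and 1, Tac1, was at least 2-fold lower. Ghrl averaged 17.2 in cells without Neurog3 and 0.732 in cells with it (log2 4.46), and 0 of the 25 cells with Neurog3 had it at 10 or more. Reg4 averaged 47.1 and 2.20 (log2 4.39). Rbp4, the plasma retinol carrier, averaged 2.79 and 0.105, and Lect2, a secreted chemotactic protein, 6.16 and 0.795. Scg2 averaged 4.95 and 0.940 and was seen in 76.9% of cells without Neurog3 and 16.0% of those with it. Resp18 averaged 2.94 and 0.796. Other granule genes were near even: of 18 past the filter, 3 were at least 2-fold higher, 2 at least 2-fold lower, and the median difference was 0.18. Pcsk1n averaged 7.15 and 5.13, Rab3c, a vesicle GTPase, 3.35 and 2.97, and Cpe 8.09 and 12.1. The granule list showed medians of 12 genes in DBZ cells without Neurog3 and 11 in cells with it. Of 6 serotonin genes past the same filter, 3 were at least 2-fold lower without Neurog3 and 0 higher. Tac1 averaged 0.867 and 3.90, Iapp 2.17 and 1.86, and Fev 1.03 and 4.24. Within the DBZ library alone, Neurod1 averaged 1.58 without and 7.23 with Neurog3, Ghrl 12.0 and 0.716, and Scg2 4.66 and 1.07.

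**Figure D3:**
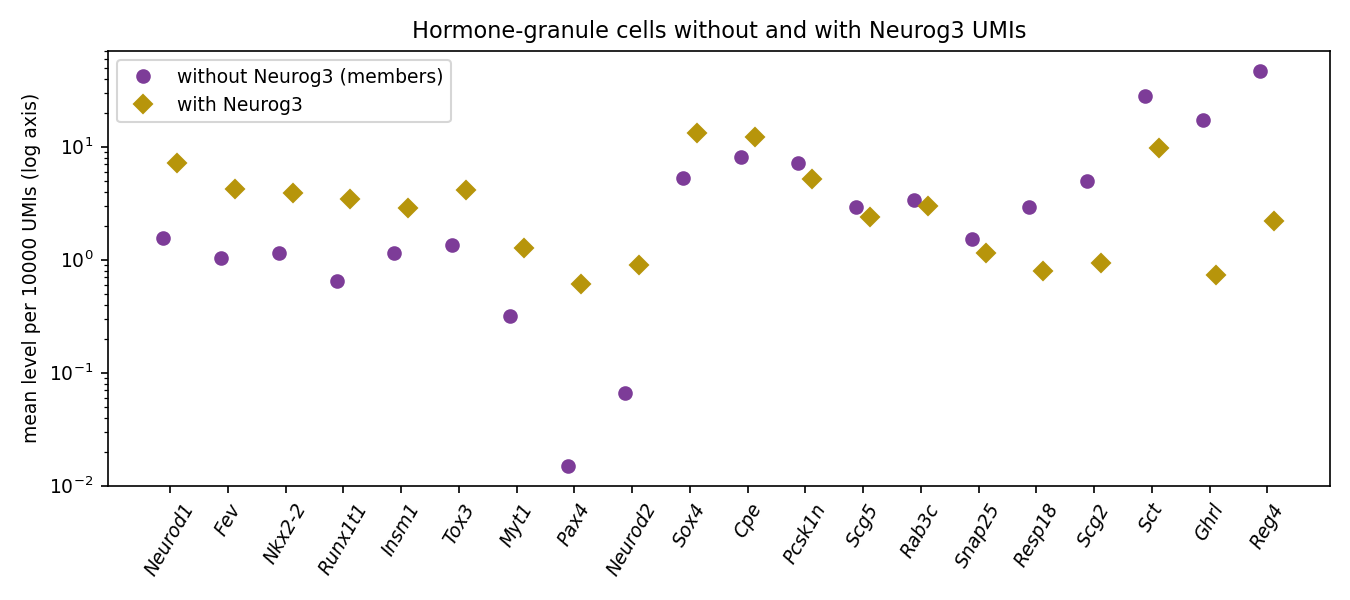
Mean level per 10000 UMIs (log axis) of 20 genes in granule cells without Neurog3 (circles, n = 121 cells) and with Neurog3 (diamonds, n = 25 cells), both libraries together. Transcription factors from Neurod1 to Sox4 stand lower in cells without Neurog3, granule genes from Cpe to Snap25 lie close together, and Scg2, Sct, Ghrl and Reg4 stand higher. Single cells with very high levels weigh on the Ghrl and Reg4 means.

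Many hormone-granule cells also held alpha-defensin transcripts, the antimicrobial peptides of Paneth cells. These genes are near-identical, which leaves the assignment of reads to single copies uncertain. At least 1 of Defa20, Defa21 and Defa22 reached 100 per 10000 in 37 of 98 DBZ hormone-granule cells, 37.8% (28.2 to 48.1%), and in 5 of 23 DMSO ones, 21.7% (7.46 to 43.7%). Among remaining cells this level was reached by 108 of 1077 with DBZ, 10.0% (8.30 to 12.0%), and by 19 of 931 with DMSO, 2.04% (1.23 to 3.17%). Counting intervals of hormone-granule and remaining cells did not overlap in either library. Of granule cells with Neurog3, 12 of 22 DBZ cells and 0 of 3 DMSO cells reached it. Defa24 showed another pattern: it reached 100 in 3 of 98 DBZ hormone-granule cells, 3.06% (0.636 to 8.69%), against 88 of 1077 remaining DBZ cells, 8.17% (6.60 to 9.97%). These intervals overlap, and its median was 7.98 in the DBZ hormone-granule cells and 6.65 in the remaining DBZ cells. Defa17 reached 100 in 1 of 98 DBZ hormone-granule cells, 1.02% (0.0258 to 5.55%). Among remaining DBZ cells it did so in 49 of 1077, 4.55% (3.38 to 5.97%), and these intervals overlap. The combined count above thus takes only defensins whose shares were larger in the hormone-granule cells.

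The 37 defensin-rich DBZ hormone-granule cells showed a median of 11 granule-list genes, against 12 in the 61 others. Cpe was seen in 97.3% of them and 93.4% of the others. Their median depth was 9240 UMIs against 8392, and the part of depth or of mixed cells in this pattern was not tested. Reg4 was high in 4 of 37 defensin-rich and 14 of 61 other DBZ cells, Ghrl in 1 and 11, Iapp in 1 and 4, and Tph1 in 0 and 4. In the DMSO library Reg4 was high in 1 of 5 defensin-rich and 3 of 18 other cells. There Ghrl was high in 0 and 5, Iapp in 2 and 3, and Tph1 in 0 and 1. Median Sct was 11.2 in defensin-rich DBZ cells and 7.29 in the other DBZ cells, and median Scg2 1.27 and 3.17.

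**Figure D4:**
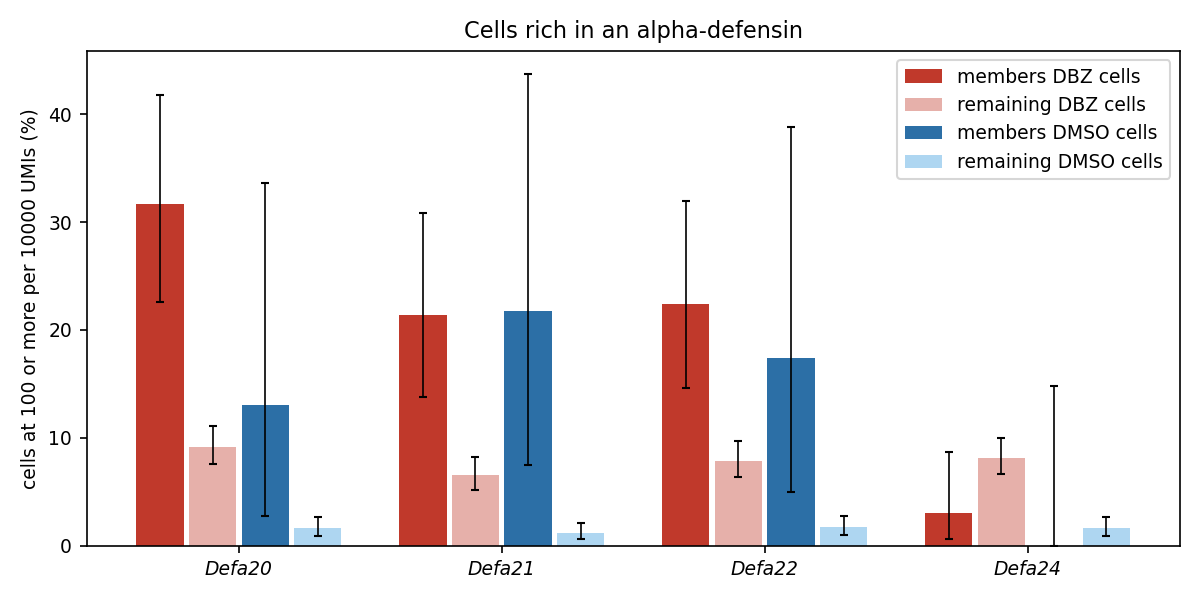
Share of cells (%) with 100 or more per 10000 UMIs of 4 alpha-defensins in hormone-granule cells (members) and remaining cells of each library; bars start at 0 and error bars are exact 95% counting intervals. Defa20, Defa21 and Defa22 reached this level in larger shares of the hormone-granule cells, while for Defa24 the DBZ shares were 3.06% and 8.17%, with overlapping intervals.

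Markers of other lineages were given as the summed level of each list, with medians over cells. The Paneth list, with 10 of 11 genes in the table, had a median of 70.4 in DBZ hormone-granule cells and 15.2 in DMSO ones, against 19.96 and 4.55 in remaining cells. Of its 7 genes past the filter, 3 were at least 2-fold higher than in other cells and 1 lower. Muc2, the goblet cell mucin, was seen in 1 of 98 DBZ hormone-granule cells and was listed at 0 throughout the DMSO library. The goblet list had medians of 2.92 and 1.35, against 1.83 and 0 in remaining cells. The enterocyte list had medians of 2.76 in DBZ hormone-granule cells and 2.29 in DMSO ones, against 1.31 and 1.80 in remaining cells. Of its 4 genes past the filter, 2 were at least 2-fold higher than in other cells and 0 lower. The tuft list had medians of 4.04 with DBZ and 2.69 with DMSO, against 10.6 and 7.04 in remaining cells, where Cd24a alone averaged 11.4 and 7.74. Cd74 was the only immune gene in the table and was seen in 4 DBZ hormone-granule cells and listed at 0 in DMSO ones.

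The cells were low in division genes. None of 12 mitosis genes was seen in 67 of 98 DBZ and 15 of 23 DMSO hormone-granule cells, against 558 of 1077 and 367 of 931 remaining cells. These counts were not thinned, and remaining cells were deeper. Granule cells with Neurog3 were alike, with none seen in 17 of 25. Mki67, the proliferation marker, had a UMI after thinning in 4.08% (DBZ) and 0% (DMSO) of hormone-granule cells, against 8.26% and 9.77% of remaining cells. The share was 4% in granule cells with Neurog3. In 1 DBZ cell all 12 mitosis genes were seen. Of 11 stem cell genes past the filter, 2 were at least 2-fold lower than in other cells and 0 higher, with a median log2 of -0.41 against 0.12 for all genes. Smoc2, a matrix protein of stem cells, averaged 0.400 against 1.77 (log2 -2.01). Lgr5, the R-spondin receptor of stem cells, was seen after thinning in 25.5% of DBZ and 30.4% of DMSO hormone-granule cells, against 34.7% and 40.7% of remaining cells. Of 15 Wnt targets past the filter, 1 was at least 2-fold higher and 1 at least 2-fold lower than in other cells. Nkd1, a feedback inhibitor of Wnt, averaged 6.90 against 9.17 in other cells, Axin2, another, 2.19 against 3.44, and Wif1, a secreted Wnt inhibitor, 4.33 against 1.13 (log2 1.89).

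Between DBZ and DMSO hormone-granule cells, 5128 genes were compared: those with a UMI in 25% or more of these cells in 1 library and listed above 0 in both. Of these, 4.58% were at least 2-fold higher and 5.66% at least 2-fold lower with DBZ, and the median log2 change was -0.06. These shares are the background for the counts that follow. Hes1, the classical Notch target (chromosome 16, 30064384 to 30067796, plus strand), was among the 10 lowest. Its levels were 0 at the lowest and the median and 2.81 at the highest in DBZ cells, against 0, 0 and 13.2 in DMSO cells, and it was seen in 15 of 98 and 8 of 23 cells. Mean Hes1 was 0.191 with DBZ and 1.29 with DMSO (log2 -2.47; pooled UMIs -2.49, -3.32 to -1.66), and the libraries overlap, with the highest levels in DMSO cells. The 2 highest, 13.2 and 5.86, belong to the 2 DMSO cells in which 0 granule-list genes were seen, and without them the log2 change was -1.20. Remaining cells had 0.942 and 3.40 (log2 -1.80), so hormone-granule cells stood below them in both libraries.

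The endocrine transcription factors past the filter, which a gene could pass through 1 library alone, were at or above their DMSO level in DBZ cells. Of 8 past the filter, 4 were at least 2-fold higher, 0 lower, with a median log2 change of 0.88. Runx1t1, with 4 DMSO UMIs, passed through the DBZ library alone. Such entry favours a higher value with DBZ, so the count is a description. The summed level of all 20 factors in the table had medians of 7.51 with DBZ and 6.73 with DMSO, and means of 11.3 and 6.48. A median cell showed UMIs of 4.5 and 4 of them. The means include Etv1, which averaged 1.95 with DBZ and was listed at 0 throughout the DMSO library. Runx1t1 averaged 0.751 with DBZ and 0.189 with DMSO (log2 1.74; pooled interval 0.43 to 3.78), from 65 and 4 UMIs. Insm1 averaged 1.27 and 0.594 (log2 1.03), and Foxa1, a forkhead factor of the gut, 0.589 and 0.223 (log2 1.23). The pooled interval of Myt1, a zinc finger factor, included 0 at -0.43 to 3.60 although its log2 change was 1.08. Neurod1 and Nkx2-2 were nearly equal, with log2 changes of 0.09 and 0.09, which were -0.03 and -0.04 without the 2 DMSO cells that lacked granule-list genes. With a granule sum of at least 20 they were -0.20 and -0.18, and that of Insm1 was 0.73.

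Of 4 peptide hormones past the filter, 2 were at least 2-fold lower with DBZ, Iapp and Ghrl, and 0 higher. Gip, Gcg and Cck, seen only in the DBZ library, could not pass it, so the count leaves them out. Sct, a rule gene, had a log2 change of 0.31. The summed level of the hormone list averaged 106 in DBZ cells and 71.0 in DMSO cells, while its medians were 13.3 and 20.2. Iapp levels reached 24.7 in DBZ cells and 43.2 in DMSO cells, with medians of 0 in both. Its mean was 1.15 with DBZ and 6.51 with DMSO (log2 -2.45; pooled UMIs -2.86 to -2.04). Ghrl averaged 12.0 and 39.2 (log2 -1.70), but a single DMSO cell at 726 set this: without the highest cell of each library the means were 7.22 and 8.00 (log2 -0.15), and with a granule sum of at least 20 the change was 1.51. Hdc had a higher mean with DBZ, 4.14 against 1.72 (log2 1.24), while its log2 change in pooled UMIs was 0.98. After thinning it was seen in 24.5% of DBZ and 21.7% of DMSO cells. Of 19 granule genes, 1 was higher, 3 were lower and the median was -0.32. Vgf, a neuroendocrine granule peptide precursor, was seen in 12.2% of DBZ and 56.5% of DMSO hormone-granule cells, against 1.58% and 2.04% of remaining cells, with means of 0.188 and 1.47 (log2 -2.67; pooled interval -4.07 to -2.11). After thinning these shares were 8.16% and 47.8%, against 0.557% and 0.967% of remaining cells. Stx1a, a SNARE protein, averaged 0.476 and 1.13 (log2 -1.17), and Syt7, a calcium sensor of release, 0.257 and 0.608 (log2 -1.10). Cplx2, complexin 2, which clamps SNARE complexes before release, averaged 2.75 and 0.779 (log2 1.75; pooled interval 1.11 to 2.72). In remaining cells Cplx2 had means of 0.427 and 0.442.

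Among the genes with the largest positive changes, Defa24 averaged 30.3 with DBZ and 1.54 with DMSO (log2 4.26), and remaining cells had 69.1 and 10.4. A Defa24 UMI was found in all 98 DBZ hormone-granule cells, at 1.38 or more, and in 1076 of 1077 remaining DBZ cells. In the DMSO library it was found in 52.2% of hormone-granule cells and 63.4% of remaining cells. The median was 7.98 with DBZ and 0.516 with DMSO, against 6.65 and 0.747 in remaining cells, and the part of free RNA in these levels was not tested. Without its highest cell the DBZ mean of Defa24 was 17.4. Of 7 Paneth genes past the filter 5 were at least 2-fold higher and 0 lower. With a granule sum of at least 20, Defa20 (0.72) and Defa22 (0.08) no longer reached 2-fold, against 1.06 and 1.23 at 10, and Defa20 (0.93) also fell short without the 2 DMSO cells that lacked granule-list genes. Itln1, the lectin intelectin, averaged 28.7 and 2.47 (log2 3.51), while in remaining cells it averaged 16.3 and 15.4. Its medians were 3.13 and 1.35, against 2.15 and 1.20 in remaining cells. Itln1 reached 100 in 6 of 98 DBZ hormone-granule cells (2.28 to 12.9%) and 0 of 23 DMSO ones (0 to 14.8%), and these intervals overlap. Rnf43, a ubiquitin ligase that removes Wnt receptors, had 61 UMIs in 38 DBZ cells and 1 UMI in 1 DMSO cell (log2 3.03; pooled interval 1.23 to 9.09). After thinning it was seen in 22.4% of DBZ and 4.35% of DMSO hormone-granule cells, against 48.0% and 31.0% of remaining cells. Remaining cells thus differed in the same direction. Clu, clusterin, a secreted chaperone, had 182 UMIs with DBZ and 2 with DMSO (log2 3.42), and remaining cells had means of 4.86 and 0.879. The other genes of the 10 highest, Defa17, Wipi1, Vps50, Tssc4, Stk38 and Cyp2c68, had log2 changes of 2.41 to 2.87, and all but Defa17 rested on 1 or 2 DMSO UMIs. Prox1, a homeobox factor and Wnt target in Apc mutant tissue, had levels of 0, 7.09 and 24.0 at the lowest, the median and the highest in DBZ cells, against 0, 3.99 and 11.9 in DMSO cells. Its means were 8.19 and 4.04 (log2 1.01; pooled interval 0.75 to 1.43), and remaining cells had 9.76 and 5.98.

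Of 10 immediate early genes past the filter, 4 were at least 2-fold lower with DBZ and the other 6 had negative log2 changes that did not reach 2-fold. Atf3, a stress-induced transcription factor, had levels of 0, 0.907 and 13.2 at the lowest, the median and the highest in DBZ cells, against 0, 5.99 and 61.4 in DMSO cells. Its means were 1.92 and 11.5 (log2 -2.55), and in remaining cells 3.11 and 7.95 (log2 -1.34). Summed immediate early levels had medians of 24.9 with DBZ and 53.2 with DMSO in hormone-granule cells, against 27.0 and 51.9 in remaining cells. Remaining cells thus differed between the libraries in the same direction. Gadd45a averaged 0.918 and 5.63 (log2 -2.55), and remaining cells 0.702 and 2.20. Cdkn1a, the cell-cycle inhibitor p21, averaged 2.58 and 6.21 (log2 -1.25). The rest of the 10 lowest were Cd164l2 at -3.64, H2-Q10 at -3.38, Igfbpl1 at -2.54, Postn at -2.45 and Wee1 at -2.37, each from at most 54 UMIs in a library. Wee1 is the kinase that delays entry into mitosis. With a pseudocount of 1 in place of 0.05, Hes1 (-0.94), Rnf43 (0.63), Insm1 (0.51), Hdc (0.92) and Prox1 (0.87) no longer reached 2-fold. Prox1 (0.98) and Insm1 (0.91) also fell short without the 2 DMSO cells that lacked granule-list genes.

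**Figure D5:**
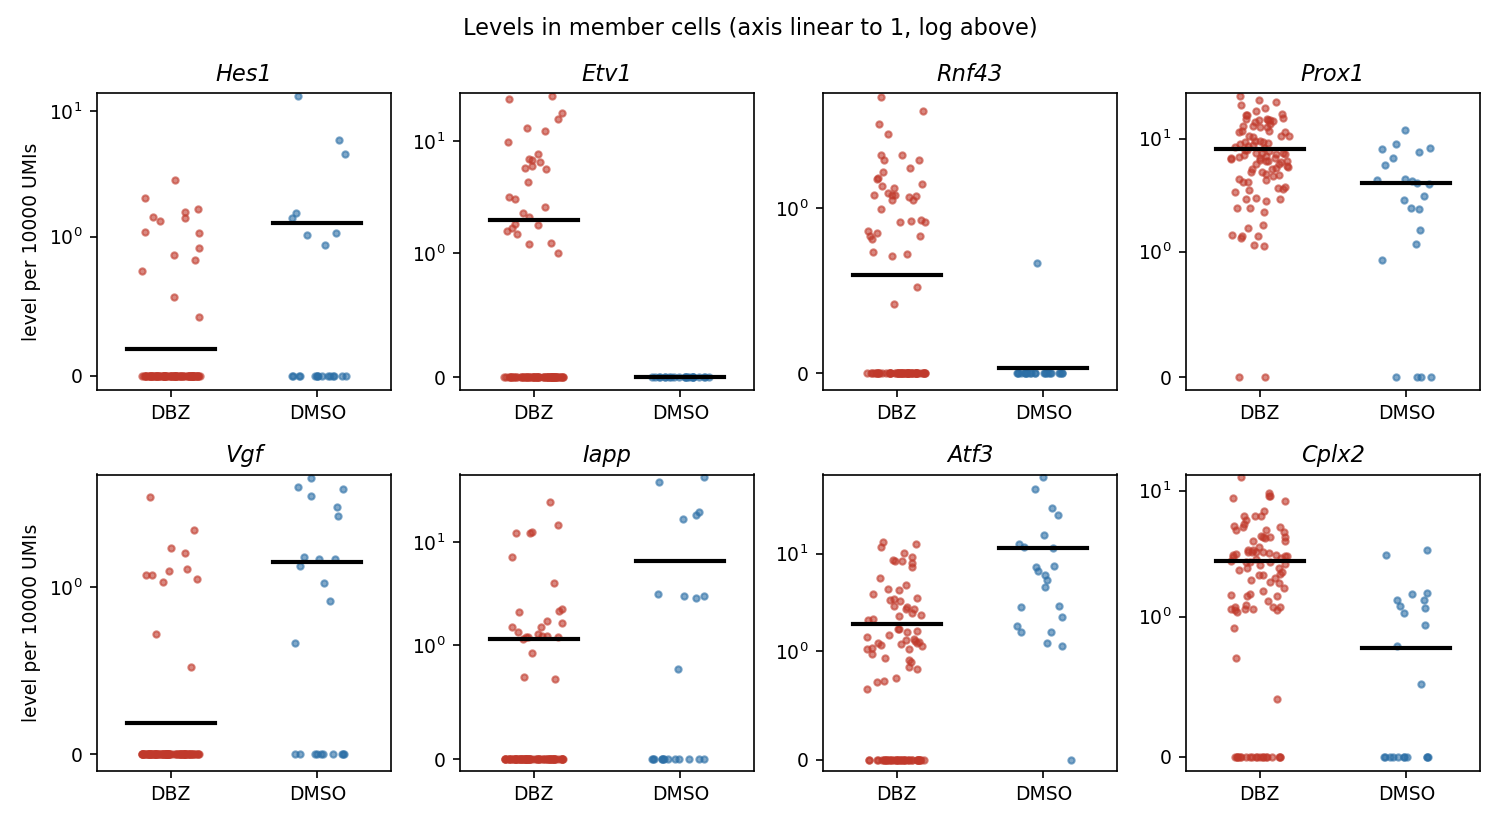
Level per 10000 UMIs of 8 genes in each DBZ (left, red) and DMSO (right, blue) hormone-granule cell, on an axis that is linear to 1 and logarithmic above; black lines are means. Hes1, Vgf, Iapp and Atf3 have lower means in DBZ cells, Rnf43, Prox1 and Cplx2 higher ones, and Etv1 is listed at 0 in all DMSO cells.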

How the data were processed

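Droplet single-cell RNA sequencing of 1 DBZ and 1 DMSO library was analysed. Per the submitters' processing notes, Cell Ranger 2.1.1, mm10 and Seurat, without a version, were used. Natural log values, ln(1 + UMIs per 10000), were deposited by the authors for 13373 genes. Columns named CTRL were read as DMSO and GSI as DBZ, from the meaning of the names. Each cell's values gave back whole UMIs to within 0.01. The sources used here give no cell or gene filters applied before deposit. A gene absent from a whole library is written as listed at 0, since a filter may have removed it.

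Changes are log2 of mean level + 0.05 in DBZ over the same in DMSO, which understates low genes; 2-fold was called without a test. Pooled UMIs have an exact conditional 95% interval, and shares an exact Clopper-Pearson 95% interval. Shares with a UMI depend on depth, so cells were also thinned to 5000 UMIs, which left out 0 cells. Genes were named if they belonged to the hormone, granule or transcription factor lists, were among the strongest of the other lists, or ranked in the top 20 over other cells or the top 10 in each direction between libraries, without Gm, Rik, mitochondrial and ribosomal protein genes. Named outside this rule, after their values were seen, are Gadd45a, Gfra3, Tubb3, Rbp4 and Lect2 in the comparison with Neurog3 cells, and Muc2, Smoc2, Lgr5, Mki67 and Cd74. The members, the lists and several cutoffs were chosen with earlier results of these data known, and the level of 100 for defensins after the data were seen. Code was tested on simulated cells. Python 3.11.15, numpy 2.4.6, scipy 1.17.1 and scanpy 1.11.5 (scrublet, expected doublet rate 5%) were used. Gene positions come from GENCODE M21 and promoters from RefSeq.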

Additional observations from a re-analysis of the deposited data

How the results depend on the processing

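No paired analysis was possible because each treatment has 1 library. Shares of hormone-granule cells followed the minimum: with a granule sum of at least 5 they were 11.7% of DBZ and 3.72% of DMSO cells, and with at least 20 they were 4.75% and 1.24%. Without the Neurog3 condition the DBZ share was 9.67%. Thinning, leaving out called doublets, leaving out shared barcodes and asking for 1 granule-list gene kept each share within its counting interval; the last 2 were chosen after seeing the data. Counts of genes past 2-fold depended on low values. In place of 235 genes higher and 290 lower, a pseudocount of 1 gave 12 and 22, a filter of 10% gave 535 and 576, no filter gave 552 and 717, and thinning gave 128 and 260; the genes compared numbered 5128, and 8274, 10146 and 3263 under the last 3. Of the repeated log2 changes of single genes, 2 called changes reversed, 176 stayed on the same side of 2-fold, 7 newly passed it and 15 lost it. Of the 176, 10 changed sign within 2-fold; of the 7, Chga and Tph1 changed sign. Ghrl changed by 1.51 with a granule sum of at least 20, against -1.70 at 10: the DMSO cell with Ghrl at 726 has a sum of 12.3 and drops out. Defa20 changed by -0.71 without the defensin-rich cells, a choice made after seeing the data that removes the cells carrying it. Without the highest cell of each library, Chga changed by 1.44 and Tph1 by 2.78. Depth limits all genes with few UMIs in 23 DMSO cells.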
